A study of Mus musculus with 4 samples.

Results

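The Hox genes of the mouse ovary are described here: all gene symbols in the deposited feature lists that read Hoxa, Hoxb, Hoxc or Hoxd followed by a number alone, which gave 39 of 32285 genes. Each symbol was counted in 4 single-cell libraries, across cell groups defined by marker genes, and the rule reads the names of the genes alone. The 39 genes lie in 4 genomic clusters on the mm10 build (GENCODE M21 annotation): 11 Hoxa genes at chr6:52155590-52260880 on the minus strand, 10 Hoxb genes at chr11:96194316-96368256, 9 Hoxc genes at chr15:102921103-103036852 and 9 Hoxd genes at chr2:74668310-74765142, the last 3 clusters on the plus strand. By paralog number, 8 genes are called anterior here (1 to 3), 15 central (4 to 8) and 16 posterior (9 to 13).

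The study treated prepubertal mice (postnatal day 25) with doxorubicin, an anthracycline that poisons topoisomerase and damages DNA, and with recombinant human AMH, the anti-Müllerian hormone made by granulosa cells. The 4 groups were a control given PBS or saline, doxorubicin alone (3 mg/kg, 2 weekly doses), doxorubicin with AMH (3 mg/kg and 0.75 mg/kg, written doxorubicin+AMH) and AMH alone (0.75 mg/kg). Ovaries were taken 4 h after the second doxorubicin dose, 5 animals per group gave 1 ovary each to a pool, and each pool gave 1 library of 3′ single-cell RNA counts. With 1 library per group, no difference between treatments has a replicate check, and such differences are given as values with counting intervals and no p-value.

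Hox genes encode homeodomain transcription factors that bind DNA with partner proteins of the Pbx and Meis families. Within a cluster, the genes are switched on in the order of their place on the chromosome, so that anterior members act towards the head and posterior members towards the tail, and adult fibroblasts, smooth muscle and endothelium keep much of the code of their region. In the female reproductive tract, posterior Hoxa genes are laid out along the Müllerian duct: Hoxa9 is known for the oviduct, Hoxa10 and Hoxa11 for the uterus, and Hoxa13 for the cervix and vagina.

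Promoters of 22 of the 39 genes were found in RefSeq (build GRCm38.p6), and 6 are printed as the 250 bases before the start site nearest to the annotated 5′ end, read 5′ to 3′ on the gene's strand. Hoxd9, Hoxd10 and Hoxd11 are shown because they were called higher in one stromal group, Hoxa10 and Hoxa11 because 1 library carried most of their UMIs (unique molecular identifiers, 1 per captured transcript), and Hoxb8 because its mean was highest in oviduct-type epithelium. Capitals mark matches on either strand to TTTATG, a site bound by Cdx factors, or to TAATTA, the core site of many homeodomains.
Hoxd9 chr2:74697513-74697762 (plus strand): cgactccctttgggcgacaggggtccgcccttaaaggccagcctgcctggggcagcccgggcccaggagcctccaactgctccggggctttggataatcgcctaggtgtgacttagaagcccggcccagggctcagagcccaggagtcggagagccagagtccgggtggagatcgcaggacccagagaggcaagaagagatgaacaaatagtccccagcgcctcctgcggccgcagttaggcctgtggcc
Hoxd10 chr2:74691641-74691890 (plus strand): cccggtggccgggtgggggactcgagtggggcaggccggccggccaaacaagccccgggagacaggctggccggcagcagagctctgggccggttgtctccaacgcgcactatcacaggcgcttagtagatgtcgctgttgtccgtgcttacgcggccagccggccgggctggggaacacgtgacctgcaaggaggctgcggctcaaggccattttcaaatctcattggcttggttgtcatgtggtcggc
Hoxd11 chr2:74679308-74679557 (plus strand): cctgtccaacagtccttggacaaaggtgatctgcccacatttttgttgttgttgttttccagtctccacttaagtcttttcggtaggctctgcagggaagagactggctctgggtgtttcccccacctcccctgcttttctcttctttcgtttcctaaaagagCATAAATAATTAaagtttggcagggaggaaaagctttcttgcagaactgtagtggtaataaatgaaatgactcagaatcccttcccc
Hoxa10 chr6:52240855-52241104 (minus strand): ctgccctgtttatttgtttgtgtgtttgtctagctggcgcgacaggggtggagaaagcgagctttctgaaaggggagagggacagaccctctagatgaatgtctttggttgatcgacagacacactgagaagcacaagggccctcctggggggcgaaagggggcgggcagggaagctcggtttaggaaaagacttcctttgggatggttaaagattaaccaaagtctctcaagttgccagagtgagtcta
Hoxa11 chr6:52245811-52246060 (minus strand): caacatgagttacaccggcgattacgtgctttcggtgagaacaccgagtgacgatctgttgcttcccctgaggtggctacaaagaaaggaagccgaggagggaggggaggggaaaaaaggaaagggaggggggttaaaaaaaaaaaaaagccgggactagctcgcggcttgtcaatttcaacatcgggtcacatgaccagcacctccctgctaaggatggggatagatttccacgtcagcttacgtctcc
Hoxb8 chr11:96281655-96281904 (plus strand): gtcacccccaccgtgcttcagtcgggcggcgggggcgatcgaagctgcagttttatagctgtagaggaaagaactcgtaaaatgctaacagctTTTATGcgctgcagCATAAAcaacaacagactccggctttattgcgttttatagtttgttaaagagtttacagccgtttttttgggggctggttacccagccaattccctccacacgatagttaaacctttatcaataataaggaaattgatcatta
In Hoxb8, TTTATG was matched once on each strand, with 8 bases between the matches. In Hoxd11, a reverse match to TTTATG lies directly before a TAATTA match, with no base shared or between them. Over the 250-base windows, TTTATG was present in 5 of the 22 Hox promoters and in 11.1% of 27025 RefSeq promoters, TAATTA in 1 of 22 and 4.90%, and TGATTNAT, a site of Pbx with Hox, in 1 of 22 and 2.99%. Some start sites used lie far from the annotated 5′ end, by 3281 bases in Hoxa7, 3719 in Hoxa9, 10049 in Hoxd4 and 15461 in Hoxc4. Hoxa7 and Hoxd4 are among the 5 with TTTATG. The Hox windows held a median of 12 CpG sites (2 to 35), against a median of 6 over all promoters, and the printed windows ranged from 2 in Hoxd11 to 20 in Hoxd10.

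The libraries held 7141 to 9478 deposited cells and 138647495 to 178279122 UMIs each. After removal of cells with fewer than 1000 UMIs, more than 20% mitochondrial UMIs or the highest doublet scores, 28631 cells remained (6078 to 7998 per library), and each pair of libraries shared 11 to 24 cell barcodes. Clustering without the Hox genes gave 33 clusters, 32 of which were named from markers and merged into 18 cell groups. The labelled tissue was present: Inha, the inhibin alpha subunit of granulosa cells, averaged 2679 CPM (UMIs per 1000000 UMIs of a group's summed cells) in the granulosa group and at most 317 elsewhere, and Cyp17a1, the androgen enzyme of theca, 1025 and at most 42.3. Cells with markers of oviduct epithelium fell into an Ovgp1-high group (Ovgp1 at 7459 CPM and Pax8 at 264 CPM) and a ciliated group (2539 and 72.8 CPM), with at most 16.2 and 7.45 CPM in any other group, and together made up 1.79% of the control library, 0.0165% of doxorubicin (1 cell), 0.743% of doxorubicin+AMH and 3.08% of AMH. Values by library start with the control, followed by doxorubicin, doxorubicin+AMH and lastly AMH, and groups of fewer than 20 cells in a library were left out.

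Hox transcripts took a larger share of UMIs in mesenchyme, epithelia and endothelia than in granulosa and blood cells. The 39 genes gave 146849 UMIs in the deposited cells and 129639 in the cells kept. Summed over all members, the level was highest in a muscle group high in Rspo3 (708 ± 192 CPM, mean and SD over 4 libraries) and in a stromal group high in Nkain3 and Wnt4 (704 ± 68.1 CPM). It was lower in pericytes (422 ± 42.2 CPM), surface epithelium (421 ± 23.9 CPM), lymphatic endothelium (405 ± 65.5 CPM), blood endothelium (329 ± 39.6 CPM) and theca (258 ± 26 CPM). Among the other stromal groups, that high in Clec3b and Dpt was at 441 CPM, that high in Lrat and Tmeff2 at 382 and that high in Enpep and Lamc3 at 261. A stromal group without a leading pair was at 376 CPM, Ednrb-high muscle at 434 and Ovgp1-high epithelium at 417. Granulosa cells, the most numerous group, carried 105 ± 2.35 CPM, with the 4 libraries between 103 and 108. Macrophages (36.6 ± 8.25 CPM), T or NK lymphocytes (37.5 ± 13.4 CPM) and erythroid cells (30.8 ± 18.6 CPM) were lowest and serve as the background level. In the heat map of the 26 Hox genes that averaged 5 CPM or more somewhere, the highest Hoxa mean (Hoxa7) and the highest Hoxc mean (Hoxc8) lay in Rspo3 muscle, the highest Hoxb mean (Hoxb6) in Ovgp1-high oviduct-type epithelium and the highest Hoxd mean (Hoxd9) in Nkain3/Wnt4 stroma.

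**Figure D1:**
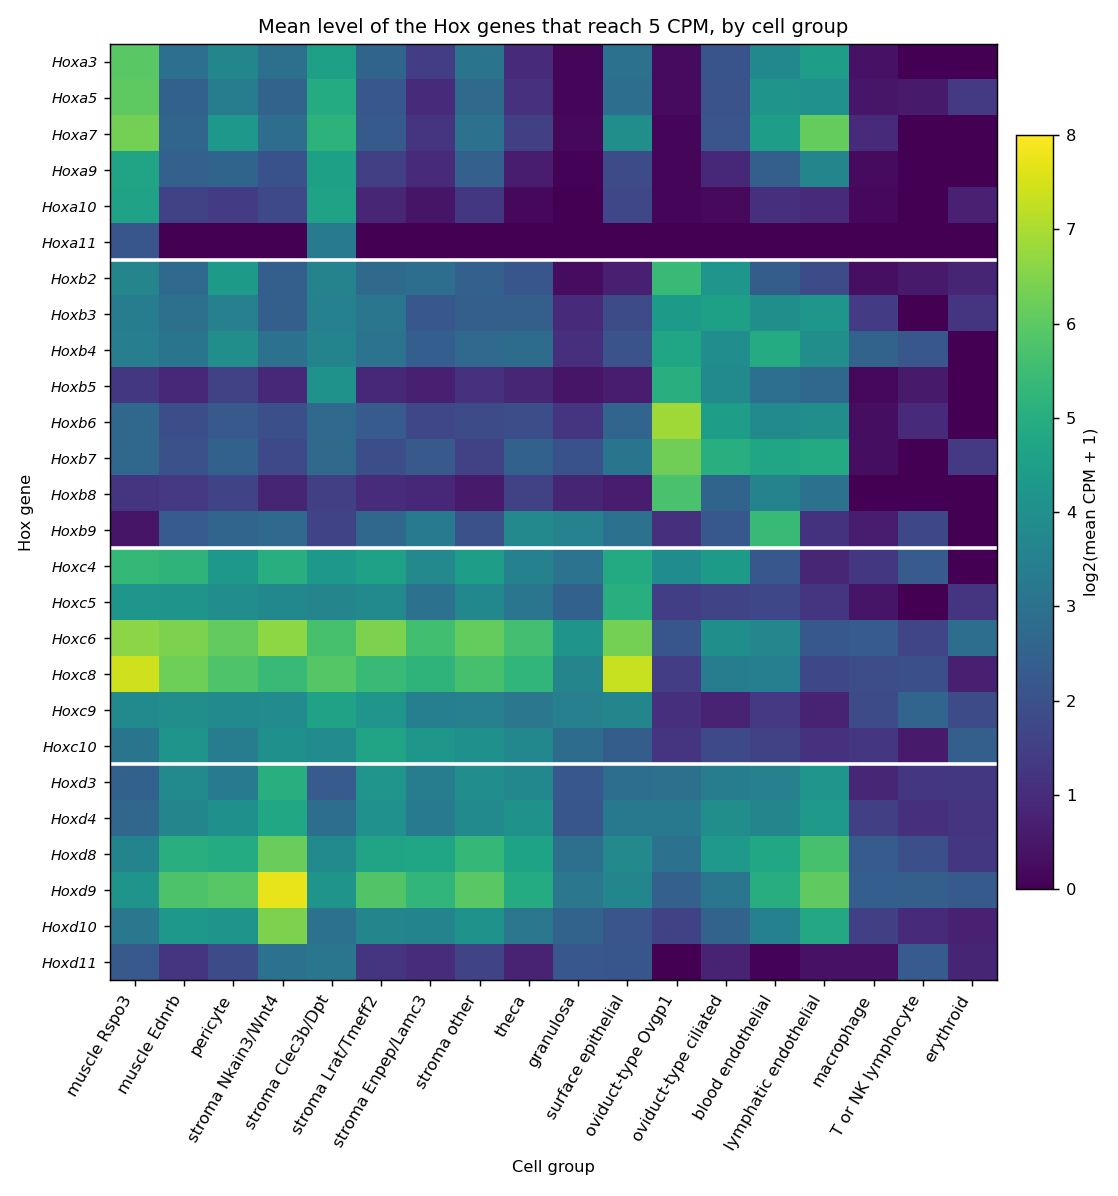
Mean level of the 26 Hox genes that reach 5 CPM in at least 1 group (rows, grouped by genomic cluster and ordered by paralog number) in each of 18 cell groups (columns), as log2(mean CPM + 1) over the libraries with at least 20 cells of the group. The brightest fields are Hoxd9 in Nkain3/Wnt4 stroma (213 CPM), Hoxc8 in Rspo3 muscle (170.1 CPM) and in surface epithelium (158 CPM), and Hoxb6 in oviduct-type epithelium (115 CPM).

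The members differed widely in level. Because the 3′ assay counts molecules and not fragments, levels are compared between genes without scaling by length. Hoxc6, Hoxc8 and Hoxd9 together made up 41.1% of all Hox UMIs in the kept cells, and the Hoxc cluster gave 60572 UMIs, Hoxd 41437, Hoxb 18936 and Hoxa 8694. In at least 1 cell group, 24 of the 39 genes reached a mean of 20 CPM, while 13 stayed under 5 CPM in every group. Among the low ones were the most posterior genes: Hoxa13 (3 UMIs in all deposited cells), Hoxb13 (1), Hoxc12 (0), Hoxc13 (9), Hoxd12 (6) and Hoxd13 (7), genes known from the hindmost body and the limb tips. Anterior genes such as Hoxb1 and Hoxd1, which act in the hindbrain region, were low too, with 21 UMIs for Hoxb1 and 54 for Hoxd1. For 9 members an exon is shared with another gene on the same strand (Hoxd3 with Hoxd4, and Hoxc5 with Hoxc10, among them) and 14 are overlapped by an antisense gene, so that counts of such neighbours can be split in ways the files do not show.

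The 4 genomic clusters were used in different proportions. Hoxc genes gave most Hox UMIs in granulosa cells (53.5% ± 1.48, SD over 4 libraries), Ednrb muscle (56.2% ± 1.04) and surface epithelium (74.5% ± 5.42). Hoxd genes gave 61.7% ± 2.2 in Nkain3/Wnt4 stroma and 29.6 to 37.7% in the Lrat/Tmeff2 stroma. Hoxa genes reached 37.5% ± 10.7 in Rspo3 muscle and 32.2% ± 7.43 in Clec3b/Dpt stroma, against 0.431% ± 0.162 in granulosa cells. Hoxb genes made up 87.1% ± 1.83 in Ovgp1-high oviduct-type epithelium (3 libraries). Posterior genes held 48.9% ± 2.31 of Hox UMIs in Nkain3/Wnt4 stroma and 2.74% ± 1.46 in Ovgp1-high epithelium, and central genes held 84.9% ± 6.29 in surface epithelium.

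**Figure D2:**
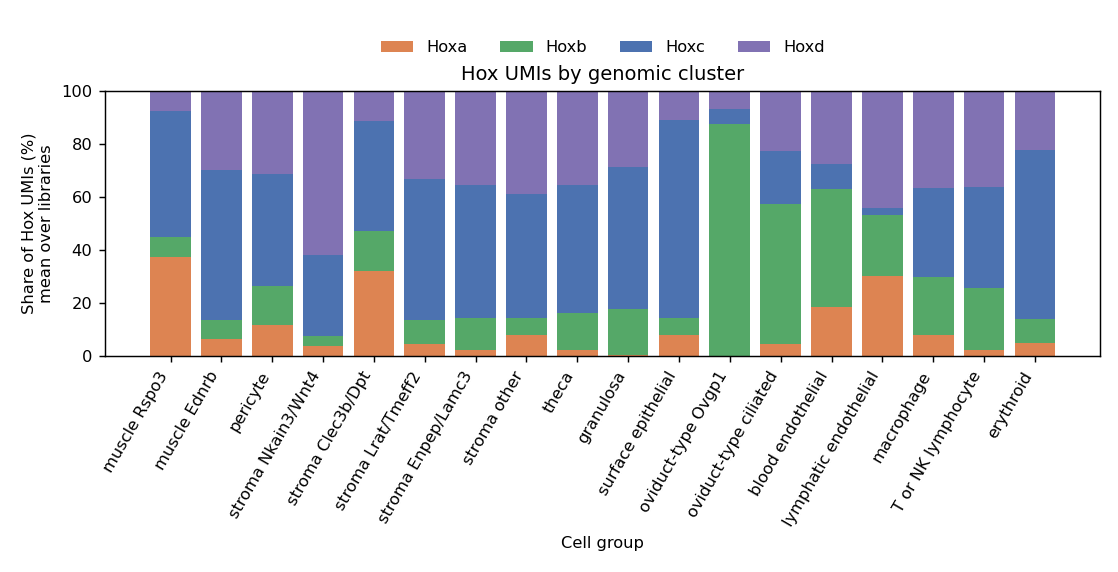
Share of Hox UMIs (percent, mean over libraries) that fell to the Hoxa, Hoxb, Hoxc and Hoxd clusters in each of 18 cell groups, as stacked bars that add to 100%. The Hoxb share is largest in Ovgp1-high epithelium, the Hoxd share in Nkain3/Wnt4 stroma and the Hoxc share in surface epithelium.

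Differences between cell groups were tested with edgeR's quasi-likelihood test on UMIs summed per library and group, fitted over all genes with the library as a block. A gene was called at a Benjamini-Hochberg adjusted p below 0.05 and at least 2-fold. The library is the replicate here, and the treatments are part of the spread. In this fit 26 Hox genes and 16147 genes in all passed the filter on low counts. A further fit, with both muscle groups apart, held 28 Hox genes among 17044.

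Most Hox genes took up a larger share of UMIs in stroma than in granulosa cells. Median depth was 16750 to 23231.5 UMIs per granulosa cell, 5579 to 7534 in Lrat/Tmeff2 and 15440 to 19500 in Enpep/Lamc3 stroma. Hox UMIs per cell were not compared, so the differences below are in shares. The 5 stromal groups are named by the gene pair highest in them, except for 1 group without a leading pair. Of the 26 genes, 21 were higher in the mean of the 5 stromal groups and 1 was lower, where 18.3% of all genes tested were higher and 12.7% lower. The median log2 difference was 2.03 over the Hox genes and -0.02 over all genes. Hoxc6, a thoracic gene, was at 15.9, 15.4, 17.8 and 17.4 CPM in granulosa cells and 74.2, 91.5, 82.4 and 88.6 CPM in Lrat/Tmeff2 stroma, and its stroma to granulosa difference was 2.05 ± 0.13 on the log2 scale (SE, edgeR adjusted p = 1.9e-20). Hoxa genes differed most. Hoxa3 was at 0.123, 0.0492, 0.0475 and 0.091 CPM in granulosa cells and 8.54, 5.67, 8.18 and 7.13 CPM in the stromal group without a leading pair, a log2 difference of 6.16 ± 0.32 (edgeR adjusted p = 8.2e-22). The granulosa values of Hoxa3 rest on 3 to 8 UMIs per library, so the size of that difference is imprecise.

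Hoxb9 went the other way. This posterior Hoxb gene, known for rib patterning, was at 8.17, 9.87, 11.1 and 13.3 CPM in granulosa cells and 2.78, 3.21, 2.12 and 3.56 CPM in the stromal group without a leading pair, and those groups did not overlap. Enpep/Lamc3 stroma, at 10.5, 11.5, 6.62 and 7.76 CPM, overlapped with granulosa cells. The Hoxb9 log2 difference, stroma against granulosa, was -1.21 ± 0.15 (edgeR adjusted p = 1.5e-09). The 4 members not called were Hoxb7 (0.03), Hoxb8 (0.34), Hoxc9 (0.53) and Hoxd11 (-0.47). Hoxd11 was at 3.01, 2.89, 4.56 and 3.68 CPM in granulosa cells. Theca cells had 26.6, 25.9, 32.3 and 33.7 CPM of Hoxd9 and 35.2, 36.9, 36.1 and 40.5 CPM of Hoxc8.

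The Nkain3/Wnt4 stroma was set apart by Hoxd. Hoxd9, which takes part in lumbar and limb patterning, was at 241, 238, 202 and 172 CPM there, and its mean was the highest of any Hox gene in any group. In the same order it was at 65.2, 67.3, 53.9 and 56.7 CPM in the stromal group without a leading pair, 63.1, 54, 55.5 and 50.6 in Lrat/Tmeff2, 43.9, 38.3, 35.6 and 31.5 in Enpep/Lamc3 and 10.3, 4.42, 40.1 and 12 in Clec3b/Dpt stroma. Every Nkain3/Wnt4 library lay above every library of the other 4 stromal groups. Hoxd10, a hindlimb and lumbar motor neuron gene, was at 84.8, 92.5, 88.1 and 70.3 CPM in this stroma and at 12.6, 12.4, 13 and 9.05 CPM in Lrat/Tmeff2 stroma. Hoxd8 stood at 75.4, 71.7, 66.1 and 72.1 CPM, against 44.7, 36.7, 38.8 and 37.4 CPM in the group without a leading pair. The groups do not overlap for either gene.

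The test called 6 Hox genes higher in Nkain3/Wnt4 stroma than in the mean of the other 4 stromal groups and none lower, and all 6 are Hoxd genes; 3.49% of all genes tested were higher and 4.22% lower. The log2 differences were 2.97 ± 0.20 for Hoxd10 (edgeR adjusted p = 3.7e-17), 2.44 ± 0.15 for Hoxd9 (2.2e-18 by the same test) and 1.51 ± 0.10 for Hoxd8 (6.8e-18). Hoxd3 and Hoxd4, the anterior neighbours, followed at 1.68 and 1.32, and Hoxd11 at 1.72 ± 0.39 (edgeR adjusted p = 6.3e-04). All 6 Hoxd genes that passed the filter were called. Hoxc4 (0.67 ± 0.14, edgeR adjusted p = 2.4e-04) and Hoxc6 (0.63 ± 0.11, 1.8e-05) passed the p threshold at under 2-fold. Of the lower side, edgeR gave 3 Hox genes an unadjusted p below 0.05, and DESeq2 called Hoxb5 (-1.13 ± 0.46, DESeq2 adjusted p = 0.047). With coarser clusters (Leiden resolution 0.5) 7 were higher and 2 lower, the added genes being Hoxa4 (1.18 ± 0.39), Hoxb5 (-1.20 ± 0.38) and Hoxb7 (-1.01 ± 0.24). The median over the 26 Hox genes was -0.03, and over all genes -0.03. After thinning every cell to 2000 UMIs, 31.2% of Nkain3/Wnt4 cells held a Hoxd9 UMI (before thinning 60.8%), against 0.463% of erythroid cells (1.29%). Median depth was 6125, 7898, 6891 and 6096 UMIs per cell in the former and 5320.5, 6553, 5278 and 3905 in the latter.

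**Figure D3:**
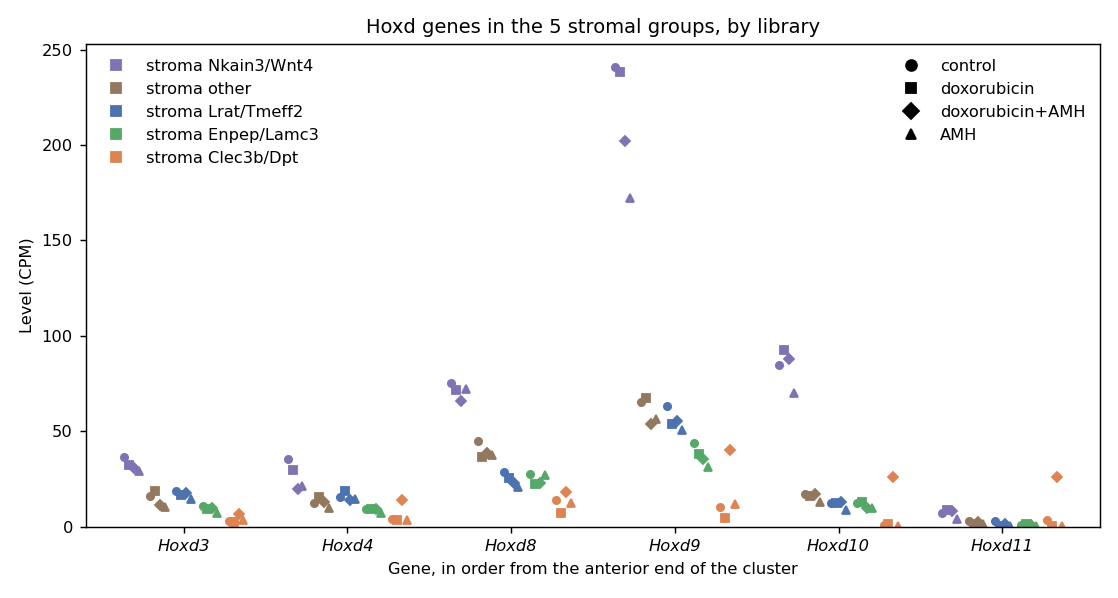
Level in CPM (vertical axis, linear) of 6 Hoxd genes (horizontal axis) in the 5 stromal groups (colours), 1 point per library (shapes). For Hoxd8, Hoxd9 and Hoxd10 the 4 Nkain3/Wnt4 points lie above all points of the other stromal groups, and for Hoxd9 they span 172 to 241 CPM.

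The Clec3b/Dpt stroma had nearly the reverse makeup, with more Hoxa and Hoxb and less Hoxd. Against the mean of the other 4 stromal groups, 14 of 26 Hox genes were higher and 6 lower, beside 11.2% and 5.37% of all genes. Medians were 1.13 over the Hox genes and -0.01 over all genes. With cells gated one by one, 9 were higher and 5 lower, with a Hox median of 0.76. Hoxa7, a central gene, was at 57.5, 20.8, 14.9 and 47.1 CPM in Clec3b/Dpt stroma and 5.36, 6.49, 5.37 and 7.67 CPM in Nkain3/Wnt4 stroma, with a log2 difference from the other groups of 3.32 ± 0.26 (edgeR adjusted p = 5.1e-15). Hoxa5, known for lung and fat tissue, was at 44.2, 22.1, 18.8 and 32.4 CPM and Hoxa3, a gene of the pharynx and thymus, at 32.8, 13.3, 16.8 and 26.7 CPM. Both were higher, by 3.40 ± 0.27 and 2.42 ± 0.21 on the log2 scale. Doxorubicin and doxorubicin+AMH were the low libraries for all 3 genes, and still lay above every library of the other stromal groups.

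Hoxb5, known from the enteric nervous system, gave the largest difference in this contrast, at 22.8, 17, 7.76 and 17 CPM in Clec3b/Dpt stroma and 0.558, 0.838, 0.364 and 0.806 CPM in Enpep/Lamc3 stroma (4.41 ± 0.27, edgeR adjusted p = 3.0e-19). Hoxb2, Hoxb3, Hoxb4, Hoxb6, Hoxb7 and Hoxb8 were higher too, by 1.13 to 1.53 on the log2 scale. The 6 genes that were lower were Hoxb9 and the Hoxd genes Hoxd3, Hoxd4, Hoxd8, Hoxd9 and Hoxd10. Hoxd9 was the furthest below, at -2.19 ± 0.24 (edgeR adjusted p = 5.1e-11). Hoxc9 was the one Hoxc gene called, at 23.3, 29.4, 20.05 and 21.4 CPM. The call of Hoxd11 (higher, 1.45 ± 0.45, edgeR adjusted p = 0.0081) was lost without the doxorubicin+AMH library, described below (-0.06 ± 0.55, edgeR adjusted p = 0.96). Hoxa10, at 4.02 ± 0.36 with that library, was at 2.66 ± 0.35 without it (edgeR adjusted p = 1.5e-07) and was still called.

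Smooth muscle fell into 2 groups with different Hox codes. The first, high in Ednrb, held 778, 547, 741 and 723 cells. It had little desmin (Des at 25.7 CPM, lower than the highest non-muscle group at 267), and its Myh11, smooth muscle myosin, was at 1507 CPM. The other, high in Rspo3, held 203, 20, 56 and 183 cells, with Des at 1663 and Myh11 at 3026 CPM. Hoxc8, which shapes the thoracic skeleton, was at 68.5, 72.4, 80.5 and 77.9 CPM in Ednrb muscle and at 256, 132, 32.4 and 260.1 CPM in Rspo3 muscle. Control and AMH were the high Rspo3 muscle libraries, and doxorubicin+AMH lay below all 4 Ednrb muscle libraries. Hoxa5 was at 98.9, 40.6, 24.3 and 93.2 CPM in Rspo3 muscle and 5.004, 3.61, 3.41 and 6.35 CPM in Ednrb muscle, and Hoxa7 at 98.5, 33.8, 64.7 and 122 and 4.49, 5.41, 6.13 and 4.61 CPM. For Hoxa5 and Hoxa7 all Rspo3 muscle libraries lay above all Ednrb muscle libraries. Hoxd9 showed the opposite order, at 6.54, 10.1, 46.9 and 3.59 and 52.1, 51.8, 61.6 and 49.8 CPM.

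In the contrast of Rspo3 against Ednrb muscle, a fit added after the data were seen, 8 of 28 Hox genes were higher and 7 lower, against 7.64% and 7.13% of all genes. Medians were 0.32 and -0.06. The higher genes were Hoxc8 and 7 of the Hoxa cluster (Hoxa2, Hoxa3, Hoxa5, Hoxa6, Hoxa7, Hoxa9 and Hoxa10), led by Hoxa7 at 4.02 ± 0.31 (edgeR adjusted p = 2.5e-15). The lower ones were Hoxb9, Hoxc10 and 5 Hoxd genes, with Hoxd9 at -2.30 ± 0.41 (edgeR adjusted p = 1.2e-05). When cells were gated one by one on their markers instead of by cluster, edgeR called 6 higher and 0 lower, and the Hoxd10 difference turned to 0.30 ± 0.34. The Hoxa10 call of this contrast was lost without the doxorubicin+AMH library: it was at 2.75 ± 0.60 with it and 0.40 ± 0.56 without it (edgeR adjusted p = 0.68). The doxorubicin sum of Rspo3 muscle rests on 20 cells.

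Merged as 1 class, muscle differed less. Against the stroma, 5 of 26 Hox genes were higher (Hoxa3, Hoxa4, Hoxa5, Hoxa7 and Hoxc8) and none lower, with 5.16% of all genes higher and 4.58% lower. The medians were 0.17 over Hox genes and -0.00028 over all. On the lower side, edgeR gave 0 Hox genes an unadjusted p below 0.05 and DESeq2 called 0. The merged class holds 2789 Ednrb and 462 Rspo3 muscle cells, in proportions that differ between libraries. Of the 5 higher genes, Hoxa3, Hoxa5, Hoxa7 and Hoxc8 were also called higher in Rspo3 than in Ednrb muscle. Hoxa7 in Ednrb muscle overlapped with its values in Nkain3/Wnt4 stroma, given above. The muscle groups were not tested against stroma separately. Hoxa4, a gene of the neck region with a mean of no more than 4.87 CPM in any group, had the largest difference, 1.78 ± 0.26 (edgeR adjusted p = 3.8e-07). Against pericytes, the mural cells of small vessels, 1 of 26 was higher and 1 lower, where 6.22% and 9.7% of all genes were called. With cells gated one by one, 6 of 26 were higher and 1 lower, beside 1002 and 1546 of 15849 genes. The 2 called from the clusters were Hoxc4, at 1.10 ± 0.23 (edgeR adjusted p = 1.9e-04), and Hoxb2, at -1.68 ± 0.34 (edgeR adjusted p = 9.6e-05). Hoxb2 was at 25.8, 29.9, 16.8 and 6.46 CPM in pericytes and 5.41, 6.13, 5.84 and 5.12 CPM in Ednrb muscle, and the AMH pericyte value lies close to the muscle values. Without the AMH library the Hoxc4 difference was 0.94 ± 0.27, under 2-fold (edgeR adjusted p = 0.0069).

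The epithelia of the ovary surface and of the oviduct type had Hox codes from different clusters. The surface epithelium, which covers the ovary, was rich in Hoxc: Hoxc8 was at 177, 143, 142 and 172 CPM, Hoxc6 at 76.8, 92.3, 69 and 77.1 CPM and Hoxc5 at 37.5, 32.7, 30.8 and 25.5 CPM. The Ovgp1-high oviduct-type cells, counted in control, doxorubicin+AMH and AMH only, had 0.816, 0 and 4.47 CPM of Hoxc8 and 2.45, 2.13 and 5.52 CPM of Hoxc6. In their place they carried Hoxb: Hoxb6, a lateral plate mesoderm gene, was at 138, 93.6 and 113 CPM, against 1.81, 3.6, 8.81 and 6.22 CPM in the 4 surface epithelium libraries. Hoxb7 was at 91.8, 68.1 and 70.2 and 9.98, 8.84, 5.87 and 5.6 CPM, Hoxb8 at 46.1, 57.5 and 50.2 and 0.302, 0.654, 0 and 1.24 CPM, and Hoxb2, a hindbrain gene, at 50.2, 36.2 and 38.4 and 0, 0.654, 0 and 1.87 CPM. None of these groups overlap. Hoxb9, the next gene in the cluster, was at 0.408, 2.13 and 0.789 CPM in Ovgp1-high cells and 3.63, 6.22, 13.2 and 4.35 CPM in surface epithelium, so the run of high Hoxb genes reached from Hoxb2 to Hoxb8.

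The test of oviduct-type against surface epithelium pooled Ovgp1-high and ciliated cells and left out the doxorubicin library, which held 1 such cell. It called 7 of 28 Hox genes higher and 8 lower, beside 17.0% and 13.6% of all genes, with medians of -0.45 and 0.04. With cells gated one by one, 7 of 26 were higher and 12 lower, with a Hox median of -1.44, and without the control library the Hox median was -0.08. The higher genes were Hoxb2 to Hoxb8, each of them, led by Hoxb8 at 5.66 ± 0.48 (edgeR adjusted p = 3.9e-14) and with Hoxb6 at 4.19 ± 0.33 (9.6e-16). The lower genes were Hoxa3, Hoxa5, Hoxa7, Hoxa9, Hoxc5, Hoxc6, Hoxc8 and Hoxc9. Hoxc8 differed by -4.16 ± 0.40 (edgeR adjusted p = 3.2e-13). The posterior Hoxa genes known from the reproductive tract were near 0 in Ovgp1-high cells, with Hoxa9 at 0, 0 and 1 UMIs, Hoxa10 at 0, 0 and 1 and Hoxa11 at 0, 0 and 0. Ciliated cells, with at least 20 cells in control and AMH only, carried less Hoxb6 (26.1 and 17 CPM) and Hoxb8 (6.03 and 3.9 CPM) than any Ovgp1-high library. Their Hoxb3, at 21.4 and 23.4 CPM, overlapped with the Ovgp1-high values of 22.4, 12.8 and 23.1 CPM. The median depth of Ovgp1-high cells was 24844, 3592 and 12503 UMIs.

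**Figure D4:**
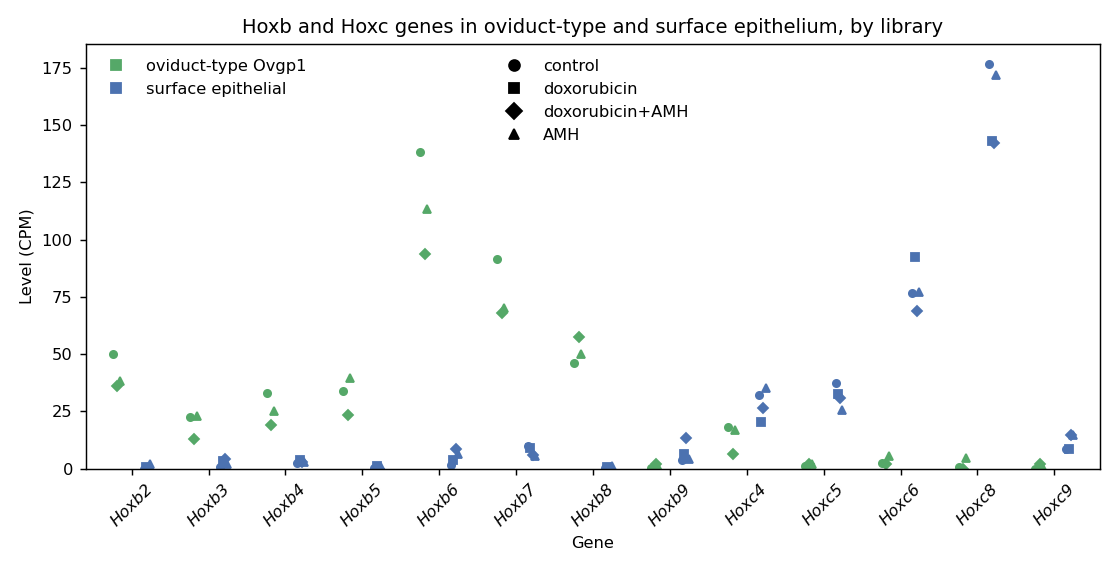
Level in CPM (vertical axis, linear) of Hoxb and Hoxc genes (horizontal axis) in Ovgp1-high oviduct-type epithelium (green, 3 libraries) and surface epithelium (blue, 4 libraries), 1 point per library (shapes). Green points lie above blue points from Hoxb2 to Hoxb8, and blue points above green points from Hoxc4 to Hoxc8.

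Blood and lymphatic endothelium differed most in Hoxb9. Hoxb9 was at 41.7, 38.7, 43.4 and 42.2 CPM in blood endothelium, its highest level in any group, and at 0.417, 0, 2.26 and 2.42 CPM in lymphatic endothelium, where its 4 values rest on 1, 0, 2 and 3 UMIs. Hoxa7 had the opposite order, at 76.8, 60.9, 71.2 and 65.4 CPM in lymphatic and 17.2, 24.4, 31 and 12.5 CPM in blood endothelium. Neither pair of groups overlaps. Hoxd9 was at 98.1, 40.6, 67.8 and 56.5 CPM in lymphatic and 24.7, 28, 37.2 and 31.7 CPM in blood endothelium, with the control library the highest of the lymphatic values. Hoxc genes were scarce in lymphatic endothelium, where Hoxc6 was at 0.835, 5.8, 1.13 and 6.46 CPM and Hoxc8 at 2.09, 1.45, 0 and 5.65 CPM.

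The contrast of lymphatic with blood endothelium, added after the data were seen, called 4 of 26 Hox genes higher and 4 lower, against 7.42% and 11.5% of all genes, with medians of -0.19 and -0.07. The higher genes were Hoxa7 (1.64 ± 0.34, edgeR adjusted p = 1.4e-04), Hoxa9, Hoxd9 and Hoxd10. The lower genes were Hoxb9 (-5.20 ± 0.41, edgeR adjusted p = 7.6e-15), Hoxb4, Hoxc6 and Hoxc8. Without the control library Hoxa7 was the one gene higher and 4 were lower. With doublets left in, 2 were higher and 7 lower, and with cells gated one by one 1 and 4. The groups held 76, 40, 44 and 59 lymphatic and 172, 124, 65 and 88 blood endothelial cells, with median depths of 16608, 8068, 7633 and 7091 and 11189, 12486, 10824 and 17238 UMIs. Prox1, the lymphatic master factor, averaged 1612 CPM in the lymphatic group and at most 19.9 elsewhere.

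Treatment ratios were formed within 11 cell groups with at least 50 cells in every library, as log2 of CPM with 1 CPM added, for genes whose mean reached 5 CPM. A gene counted as a doxorubicin shift when both pairs that share no library, doxorubicin over control and doxorubicin+AMH over AMH, differed at least 1.5-fold in the same direction. The word names the pairs compared and not a tested effect. AMH shifts were counted likewise from AMH over control and doxorubicin+AMH over doxorubicin, so both treatments are read from the same 4 libraries. Macrophages had no Hox gene above that level. Of 155 combinations of a Hox gene and one of the other 10 groups, 11 were doxorubicin shifts (7.10%), 5 higher and 6 lower, where 1.34% of all combinations of a gene and a group were. The 11 include Hoxa11 in Clec3b/Dpt stroma, which passed the 5 CPM filter through doxorubicin+AMH alone. The AMH shifts numbered 6 (3.87%), 1 higher and 5 lower, near the 3.34% of all genes. These counts depend on the settings: with 5 CPM added there were 6 doxorubicin and 3 AMH shifts, for genes of at least 20 CPM 4 and 1, and with cells gated one by one 7 doxorubicin shifts. The 95% counting intervals of both pairs lay on 1 side of no change for 7 of the 11 doxorubicin shifts and for 3 of the 6 AMH shifts. Granulosa cells, theca, Ednrb muscle and Enpep/Lamc3 stroma had none. Hoxc8 in granulosa cells, at 11.4, 13.2, 11.3 and 10.1 CPM and Hoxd9 in theca, at 26.6, 25.9, 32.3 and 33.7 CPM, are examples. Both classes hold clusters that are uneven over the libraries. Of the theca clusters, one high in Star held 28, 23, 582 and 758 cells and one high in Cyp17a1 and Serpina5 656, 408, 45 and 41, so that theca values of the libraries come mostly from different clusters. Of the granulosa clusters, 3 small ones came almost wholly from 1 library, with 183 of 186 and 80 of 81 cells from doxorubicin and 124 of 125 from AMH.

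Clec3b/Dpt stroma held more doxorubicin shifts than any other group, with 1 of 23 Hox genes higher and 5 lower, beside 1.5% and 1.76% of 11017 genes in that group. The lower 5 are anterior and central: Hoxa3, Hoxa5, Hoxa7, Hoxb4 and Hoxc4. Hoxa7 was at 57.5, 20.8, 14.9 and 47.1 CPM, a log2 ratio of -1.42 (interval -1.89 to -1.06) without AMH and -1.60 (-2.37 to -1.02) with it. Hoxb4, known from blood stem cells, was at 18.5, 7.58, 5.17 and 13.4 CPM, and Hoxc4 at 26.3, 12.3, 10.3 and 23.7 CPM. For these genes both doxorubicin-treated libraries were the low ones. The higher one, Hoxa11, rests on 2 UMIs in doxorubicin and none in control, and it passed the 5 CPM filter through doxorubicin+AMH alone, so its place among the 11 is no result. The same 2 libraries had fewer Rspo3 muscle and oviduct-type cells (203, 20, 56 and 183 and 143, 1, 49 and 245 cells), and their part in these values was not tested. The number of Clec3b/Dpt cells was 299, 199, 135 and 264, with a median of 11924, 15241, 10774 and 10736 UMIs per cell. Of 4 marker genes of the group, Clec3b was at 664, 615, 519 and 502, Dpt at 829, 786, 727 and 629, Cd34 at 420.3, 461, 350.5 and 367 and Pi16 at 68.9, 33.5, 31 and 34.7 CPM, with Pi16 highest in control. Their part in the Hox values was not tested.

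Other doxorubicin shifts were single genes. Pericytes had 3 higher, Hoxd8 (21.1, 34.2, 39.6 and 22 CPM), Hoxb3 (10.1, 17.1, 10.8 and 2.59 CPM) and Hoxc10 (6.25, 15, 12 and 5.17 CPM), from 2 to 33 UMIs per library, where 1.74% of all genes in that group were higher, and their counting intervals all span no change. Hoxc10 was higher in the stromal group without a leading pair, at 10.1, 19.5, 19.1 and 12.1 CPM (0.88 and 0.62 on the log2 scale), but with cells gated one by one the second ratio turned to -0.20. Hoxb2 was lower in Lrat/Tmeff2 stroma, at 6.99, 3.33, 4.35 and 8.51 CPM, -0.88 and -0.83, and at Leiden resolution 0.5 the second ratio was 0.0034, so that shift was lost.

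The 6 AMH shifts were spread over 4 groups. Hoxd4 was lower in Nkain3/Wnt4 stroma, at 35.3, 29.9, 19.5 and 21.5 CPM, with log2 ratios of -0.69 (interval -1.12 to -0.31) and -0.59 (-1.02 to -0.20). Hoxd3 was lower in the stromal group without a leading pair, at 16.3, 18.5, 11.5 and 10.3 CPM, and Hoxc6 higher in blood endothelium, at 6.77, 8.6, 16.8 and 16 CPM. Pericytes had Hoxa5 (14.1, 11.8, 5.997 and 5.17 CPM), Hoxb2 (25.8, 29.9, 16.8 and 6.46 CPM) and Hoxb3 lower, beside 4.24% of all genes in that group. With cells weighted equally, the Hoxb2 ratio of doxorubicin+AMH over doxorubicin turned to 0.0011. Hoxd9 in Nkain3/Wnt4 stroma was lowest in the AMH library (241, 238, 202 and 172 CPM) without reaching 1.5-fold in both pairs, at -0.48 and -0.24.

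The doxorubicin+AMH library stood apart in Clec3b/Dpt stroma by its posterior Hox genes. Hoxa10, the uterine gene, was at 5.97, 4.1, 77 and 6.35 CPM, which is 22, 13, 119 and 19 UMIs; the doxorubicin+AMH value has a Poisson interval of 63.7 to 92.1 CPM. Hoxa11 was at 0, 0.631, 35.6 and 0.334 CPM (0, 2, 55 and 1 UMIs). Hoxd10 was at 0.814, 1.26, 25.9 and 0.668, Hoxd11 at 3.8, 0.631, 25.9 and 0.668, Hoxd9 at 10.3, 4.42, 40.1 and 12 and Hoxa9, the oviduct gene, at 16, 11.4, 44 and 18.7 CPM. In each case the doxorubicin+AMH library was the highest and the other 3 lay below it. Hoxc8 and Hoxa7 were lowest in the same library, at 22.6 and 14.9 CPM, though Hoxa7 was nearly as low in doxorubicin.

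By a rule added after the data were seen, 6 of 23 Hox genes in this group (Hoxa10, Hoxa11, Hoxd4, Hoxd9, Hoxd10 and Hoxd11) were at least 3-fold higher in doxorubicin+AMH than in each other library, beside 0.399% of 11017 genes there and 0.0644% over all 11 groups. Of these, Hoxa11, Hoxd4, Hoxd10 and Hoxd11 passed the filter of a mean of 5 CPM through that library alone, so the count is a description and supports nothing; Hoxa10 and Hoxd9 pass it without that library. No Hox gene met this rule for another library or in another of the 11 groups. In that library 119 of 242 Hoxa10 UMIs and 55 of 63 Hoxa11 UMIs came from Clec3b/Dpt cells, and 53 and 7 from Rspo3 muscle, which was too small for the ratios. Rspo3 muscle had 2.07, 3.38, 85.7 and 1.99 CPM of Hoxa10, 9.99, 0, 64.7 and 22.7 of Hoxa9 and 2.76, 3.38, 24.3 and 2.39 of Hoxd10, again with doxorubicin+AMH the highest in these clusters, while Hoxc8, given above, was lowest there. Nkain3/Wnt4 stroma, by contrast, had 1.28, 2.08, 2.79 and 3.58 CPM of Hoxa10, and no Hoxa11 UMI. Granulosa cells of all 4 libraries held 1, 0, 3 and 1 Hoxa10 UMIs and no Hoxa11 UMI. In surface epithelium Hoxd11 was at 1.21, 0.654, 11.7 and 0 CPM, from 4, 2, 8 and 0 UMIs, again highest in doxorubicin+AMH.

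Hoxa10 or Hoxa11 UMIs were detected in some of the cells. In Clec3b/Dpt stroma a Hoxa10 or Hoxa11 UMI was found in 57 of 135 doxorubicin+AMH cells (42.2%), against 5.35% in control, 5.03% in doxorubicin and 4.92% in AMH. As background, 3 of 2210 granulosa cells of doxorubicin+AMH had such a UMI (0.136%) at a median depth of 21891.5 UMIs, against 10774 in Clec3b/Dpt cells. A cell without a UMI of these genes may still carry their RNA. Thinned to 2000 UMIs per cell, the Clec3b/Dpt shares were 1.003, 1.52, 17.9 and 1.15%. Among the 57 cells, 8.77% had a Hoxc8 UMI and 31.6% a UMI of Hoxa3, Hoxa5 or Hoxa7, against 26.9% and 41% of the other 78 cells, with median depths of 11577 and 10076 UMIs. In Rspo3 muscle, 29 of 56 doxorubicin+AMH cells (51.8%) had a Hoxa10 or Hoxa11 UMI, against 1.97%, 5% and 3.28%. With cells gated one by one, the levels of doxorubicin+AMH were lower in Clec3b/Dpt stroma and still the highest of the 4 libraries. Hoxa10 was then at 4.8, 3.86, 36.4 and 6.08, Hoxa11 at 0, 0.644, 9.98 and 0.32, Hoxd10 at 2.02, 1.93, 10.6 and 1.28 and Hoxd11 at 3.28, 0.965, 12.3 and 0.961 CPM. In gated Rspo3 muscle, Hoxa10 was at 1.98, 5.82, 47.9 and 2.52 CPM and Hoxa11 at 0.331, 0, 5.42 and 1.58 CPM, highest in doxorubicin+AMH. Hoxd10, at 5.29, 46.6, 44.2 and 10.1 CPM, was highest in doxorubicin there, and Hoxd11, at 3.97, 4.37, 4.52 and 2.21 CPM, no longer set doxorubicin+AMH apart.

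**Figure D5:**
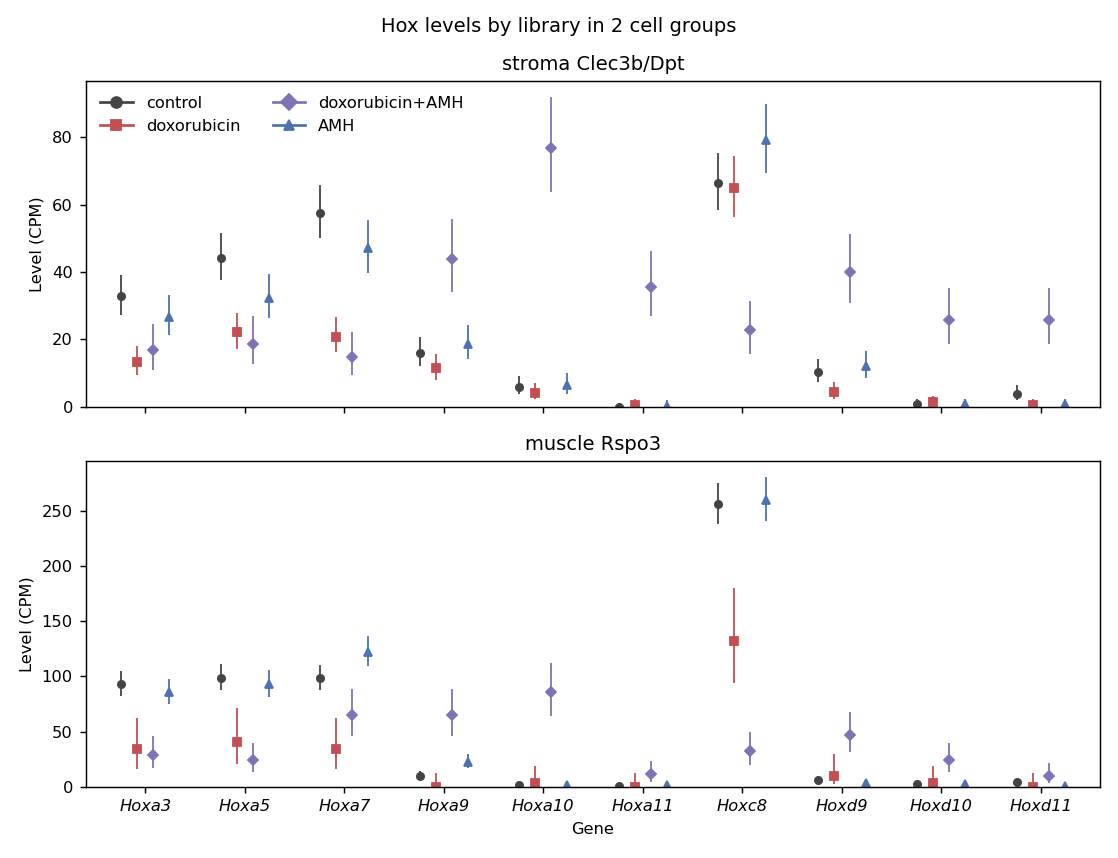
Level in CPM (vertical axis, linear, a scale per panel) of 10 Hox genes (horizontal axis) in Clec3b/Dpt stroma (top) and Rspo3 muscle (bottom), 1 point per library with its 95% Poisson interval, which covers counting error only. Purple points (doxorubicin+AMH) are the highest for Hoxa9, Hoxa10, Hoxa11, Hoxd9, Hoxd10 and Hoxd11 in both panels and the lowest for Hoxc8.

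Some other genes of these cell groups were also highest or lowest in doxorubicin+AMH, as sums over all cells of a group. Whether they lay in the cells with Hoxa10 or Hoxa11 UMIs was not tested. Hoxa11os, the antisense RNA of Hoxa11, was at 0, 0, 21.3 and 0 CPM in Clec3b/Dpt stroma, high in doxorubicin+AMH only. Strand use in the counting is not given in the sources used here, and whether its counts include reads of Hoxa11 was not tested. Osr1, a urogenital mesoderm factor, was at 12.5, 5.37, 27.8 and 4.34 CPM and Aldh1a2, which makes retinoic acid, at 4.07, 0.631, 23.3 and 1.67 CPM, both highest in that library. In Rspo3 muscle, Meis2, a Hox partner, was at 669.95, 646, 1361 and 631 CPM and Wnt5a at 129, 57.5, 24.3 and 154 CPM, the highest and the lowest library of the 4 being doxorubicin+AMH for Meis2 and Wnt5a. Des, however, was at 1535, 1857, 2297 and 962 CPM and Actg2, enteric smooth muscle actin, at 1564, 3065, 3041 and 1113 CPM there. Oviduct-type cells made up 0.743% of doxorubicin+AMH, against 1.79% of control, 0.0165% of doxorubicin and 3.08% of AMH. The part of these differences in the Hox values was not tested.

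The partners and regulators of Hox genes were taken from lists chosen by function. Of 9 cofactors, 5 were higher in stroma than in granulosa cells, beside 18.3% of all genes. In Clec3b/Dpt stroma 2 were higher and 2 lower than in other stroma, beside 11.2% and 5.37%, and in Rspo3 muscle 3 were higher and 2 lower than in Ednrb muscle, beside 7.64% and 7.13%. In lymphatic endothelium 1 was higher and 2 lower than in blood endothelium (7.42% and 11.5% of all genes), and merged muscle had 2 higher than pericytes (6.22%) and 1 higher than stroma (5.16%). In Nkain3/Wnt4 stroma and in oviduct-type epithelium edgeR and DESeq2 each called 0 of the 9, while edgeR gave an unadjusted p below 0.05 to 5 higher in the first, and to 3 higher and 2 lower in the other. Meis2 averaged 827 CPM in Rspo3 muscle and 89.8 in Ednrb muscle (log2 difference 3.21 ± 0.23, edgeR adjusted p = 2.4e-17), and 328 CPM in Clec3b/Dpt stroma.

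Of 22 chromatin regulators of the Hox clusters, such as the Polycomb and trithorax genes Ezh2 and Kmt2a, at most 1 was called higher and 1 lower in each contrast tested, at 2-fold or more, where 3.49 to 18.3% of all genes were higher and 4.22 to 13.6% lower. By edgeR's unadjusted p below 0.05 at any fold, 4 were higher and 10 lower in stroma against granulosa cells, 4 and 9 in Clec3b/Dpt stroma, 1 and 10 in Rspo3 against Ednrb muscle and 4 and 9 in oviduct-type epithelium. In the other contrasts they were 7 and 1 in Nkain3/Wnt4 stroma, 5 and 2 in merged muscle against pericytes, 5 and 2 against stroma, and 6 and 7 in lymphatic endothelium. The share of all genes at this threshold is not given here. Cbx6, a Polycomb reader, was the one higher in stroma than in granulosa cells (1.95 ± 0.10, edgeR adjusted p = 3.0e-24) and in Clec3b/Dpt stroma than in other stroma (1.04 ± 0.09, 1.6e-14). Of the non-coding genes of the clusters, all 5 that passed the filter were higher in stroma than in granulosa cells, beside 18.3% of all genes. In merged muscle 4 of 5 were higher than in stroma (5.16%), in Rspo3 muscle 2 of 7 were higher than in Ednrb muscle (7.64%), and in Clec3b/Dpt stroma Hoxaas3 was higher than in other stroma (1.56 ± 0.28). Hotairm1, at the anterior end of Hoxa, averaged 36.9 CPM in Ednrb muscle and was lower in lymphatic than in blood endothelium (-2.12 ± 0.31). Hoxb3os and Hoxb5os were the non-coding genes called higher in oviduct-type than in surface epithelium (5.09 ± 0.42 and 3.97 ± 0.66). Their gene spans overlap, on the other strand, Hoxb genes called in the same contrast.

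Of 14 regional factors of the urogenital tract tested, 6 were higher and 3 lower in Clec3b/Dpt stroma than in other stroma, beside 11.2% and 5.37% of all genes, and 3 and 2 in Nkain3/Wnt4 stroma, beside 3.49% and 4.22%. Wnt4 is among those 3, and since it names that group its call is no result; the other two are Wt1 and Emx2. Against granulosa cells, 9 were higher and 3 lower in stroma (18.3% and 12.7%). In the fit with both muscle groups apart, 7 of 16 were higher and 4 lower in Rspo3 muscle (7.64% and 7.13%) and 5 and 6 in oviduct-type epithelium (17.0% and 13.6%). Counts in the remaining contrasts were 2 and 5 for lymphatic against blood endothelium (7.42% and 11.5%), 4 and 1 for muscle against pericytes (6.22% and 9.7%) and 2 and 1 for muscle against stroma (5.16% and 4.58%). Tcf21 also served as a marker to name stroma, and Pax8 to name oviduct-type epithelium. Any calls of these genes in contrasts of those classes are no result, and the counts above do not leave them out. Emx2, which patterns the gonad and the Müllerian duct, averaged 44.2 CPM in Clec3b/Dpt stroma, 55.7 in Rspo3 muscle, 68.9 in Ovgp1-high epithelium and 104 in surface epithelium, but 5.01 in Ednrb muscle. Gata4, a gonadal factor, averaged 9.73 CPM in Clec3b/Dpt stroma and 9.41 in Rspo3 muscle, and 119 CPM in Nkain3/Wnt4 stroma and 101 in Ednrb muscle. Its log2 difference was -3.46 ± 0.24 for Clec3b/Dpt stroma (edgeR adjusted p = 1.1e-17) and -3.06 ± 0.35 for Rspo3 muscle (3.0e-10). Pax2, a Müllerian epithelium factor, averaged 76.8 CPM in Ovgp1-high cells. Of 7 inducers of Hox genes, 2 were higher in stroma than in granulosa cells (18.3% of all genes), and oviduct-type epithelium had 3 lower than surface epithelium (13.6%). Merged muscle had 3 lower than pericytes (9.7%) and 2 lower than stroma (4.58%), and Nkain3/Wnt4 stroma 1 higher and 1 lower than other stroma. Rarb, a retinoic acid receptor, was the one inducer called in Clec3b/Dpt stroma (2.31 ± 0.20, edgeR adjusted p = 1.3e-14) and in lymphatic against blood endothelium (2.33 ± 0.32), higher in both. In Rspo3 against Ednrb muscle Rarb was higher (2.30 ± 0.36, 7.2e-07 by the same test) and Cyp26b1, which breaks down retinoic acid, lower (-3.42 ± 1.24). Rarb was lower in merged muscle than in pericytes (-2.13 ± 0.33) and stroma (-1.11 ± 0.22).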

How the data were processed

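Single cells from pooled ovaries were profiled in 4 libraries. The authors deposited UMI count matrices, and the file headers name Cell Ranger 7.0.0 as their source. The submitters' processing notes name mm10, R 4.2.0 and Seurat 4.1.0. Whether intronic reads were counted is not given in the sources used here.

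Cells under 1000 UMIs or over 20% mitochondrial UMIs were dropped, and the highest Scrublet doublet scores were removed at a rate of 0.8% per 1000 cells. Cells were clustered without the Hox genes (2000 variable genes, 30 principal components, Leiden at resolution 1; scanpy 1.11.5), and clusters were named from marker lists. Raw counts were summed per library and cell group and divided by the group's total (CPM). Intervals are 95% Poisson intervals and cover counting error only. Cell groups were compared with edgeR 4.0.16 (TMM, quasi-likelihood, Benjamini-Hochberg), with the library as a block. The 4 libraries, each with another treatment, are the replicates of these tests, so p-values measure the spread between them. The fit was tested on simulated data.

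Genes given by library were to be those with a mean of at least 20 CPM in a cell group, at most 14, and those shifted in both treatment pairs; further genes were chosen after their values were seen. The members and lists were chosen with earlier results of these data known. The fit with both muscle groups apart, the contrast of lymphatic with blood endothelium and the 3-fold rule for 1 library were added after the data were seen. Alternatives were other scalings, filters, DESeq2, cell filters, clusterings, pseudocounts and leaving out each library. Results of some genes are not reported here.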

Additional observations from a re-analysis of the deposited data

Results flagged for a closer look

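Hoxd11 and Hoxd9 in Clec3b/Dpt stroma moved in opposite directions in the pairs that compare doxorubicin with its control. Hoxd11 had a log2 ratio of -1.56 for doxorubicin over control and 4.01 for doxorubicin+AMH over AMH. Hoxd9 had -1.06 and 1.66. The counting intervals of all 4 ratios lay on 1 side of no change, with 1 library per group, and the difference between the pairs was not tested. Hoxd11 passed the filter of a mean of 5 CPM through the doxorubicin+AMH library alone.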

How the results depend on the processing

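No paired analysis was possible because each treatment group has 1 library; the library was a block in every test between cell groups. Of 1112 recomputed values of the 93 called gene differences, 1061 kept their direction and call, 49 lost the call and 2 reversed. The reversed ones were Hoxd11 in Clec3b/Dpt stroma (-0.058 without the doxorubicin+AMH library, and up to 1.90 without another) and Hoxd10 in Rspo3 against Ednrb muscle with cells gated one by one (0.30). Leaving out 1 library gave 1 to 3 called Hox genes for muscle against pericytes (2 with all), 4 to 5 for muscle against stroma (5), 17 to 20 for Clec3b/Dpt stroma (20), 12 to 16 for Rspo3 against Ednrb muscle (15), 14 to 16 for oviduct-type epithelium (15), 5 to 10 for lymphatic endothelium (8), 22 for stroma against granulosa cells and 6 for Nkain3/Wnt4 stroma.

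Cells gated one by one gave 7 called Hox genes for muscle against pericytes (6 higher, 1 lower), 14 for Clec3b/Dpt stroma (9 higher, 5 lower), 19 for oviduct-type epithelium, 5 for lymphatic endothelium, 6 for Rspo3 against Ednrb muscle and 7 doxorubicin shifts. Gated levels were 175 CPM for Hoxd9 in Nkain3/Wnt4 stroma, 89.2 CPM for Hoxb6 in Ovgp1-high cells and 36.4 CPM for Hoxa10 in doxorubicin+AMH Clec3b/Dpt stroma. With doublets left in, muscle against pericytes gave 1, and with no filter on low counts muscle against stroma gave 8. Doxorubicin shifts numbered 6 and AMH shifts 3 with 5 CPM added, and 4 and 1 for genes of at least 20 CPM. Reversed ratios were Hoxb2 in Lrat/Tmeff2 stroma, doxorubicin+AMH over AMH, at resolution 0.5 (0.0034), Hoxc10 in the stromal group without a leading pair, the same pair, gated (-0.20), and Hoxb2 in pericytes, doxorubicin+AMH over doxorubicin, with cells weighted equally (0.0011). The cause was not tested. Few cells limit the precision of some sums, such as Rspo3 muscle in doxorubicin with 20 cells.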
